A study of Mus musculus with 36 samples.

Results

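The genes described here make, break down and respond to retinoic acid (RA), and were taken by symbol from the gene name column of the expression tables, from a list drawn up with earlier results of these data known. The 9 genes are *Rdh10*, *Aldh1a1*, *Aldh1a2*, *Dhrs3*, *Cyp26b1*, *Rarb*, *Rarg*, *Crabp1* and *Crabp2*, of 57126 gene IDs in the tables of primordial germ cells (PGCs) and 56262 in those of gonads. A second list of 47 other genes of retinoid handling and response was used beside them. RNA was sequenced from 36 mouse samples in 12 groups of 3. All samples are wild type by label, although the sorted PGCs carried the reporter named below. Each control group has a partner with intrauterine hyperglycemia (IUHG), in which the dam received 120 mg/kg streptozotocin at E3.5, a toxin of pancreatic beta cells, and was included when blood glucose exceeded 14 mM at E6.5. The 6 gonad samples were female gonads at E13.5 from ICR mice, and the 30 PGC samples were germ cells sorted on an *Oct4*-driven EGFP reporter at E12.5 (sex not determined), and from females and males at E13.5 and E16.5. Each sample pooled several fetuses, so no value belongs to 1 animal, and the p-values measure the spread between pools. None of the 12 groups received streptozotocin without hyperglycemia, so the toxin and the glucose cannot be told apart here.

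RA is made from retinol in 2 steps. RDH10 oxidises retinol to retinaldehyde, and the ALDH1A enzymes oxidise retinaldehyde irreversibly to RA, while DHRS3 turns retinaldehyde back into retinol. CYP26 enzymes degrade RA, CRABP1 and CRABP2 bind it in the cytoplasm, and RAR-RXR receptor pairs on DNA carry out its transcriptional effects. In the fetal gonad RA is known as an inducer of *Stra8* and of entry into meiosis in female germ cells, and CYP26B1 of the male gonad is known to keep RA from the male germ cells at the same stages.

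Levels are given as TPM, a relative abundance scaled for transcript length, and differences on the log2(TPM + 1) scale with their standard error (SE). A gene was tested where a compared group averaged at least 1 TPM. A gene was counted as changed in PGCs at an adjusted p (limma, Benjamini-Hochberg over all genes tested) under 0.01 with a log2 change beyond 1, and in gonads at an adjusted p under 0.05 with a log2 change of at least 1. Aligned sequence ran from 3.25 to 8.32 gigabases per PGC library and from 3.89 to 4.95 per gonad library. The 9 germ cell markers summed to between 2630 and 9970 TPM in PGC libraries and to between 558 and 914 TPM in gonads. The E12.5 controls, of undetermined sex, held 194 to 212 TPM of the 4 Y-linked genes, against 151 to 183 TPM in control E13.5 males and at most 0.0187 TPM in control E13.5 females. Sex and stage therefore cannot be told apart where E13.5 females are compared with E12.5. The sex mix of the E12.5 pools is not known, so a part of sex in comparisons with E13.5 males cannot be told apart from stage either. Library 1 of the control gonads stood apart. Its Y-linked genes summed to 51.3 TPM, where the other 5 gonad libraries were at 0, and its *Amh*, the Sertoli cell hormone, was at 178 TPM against at most 1.48 TPM in the others. Sorted PGCs and gonads differed in strain, library kit and aligner, so their levels are set side by side without a test.

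RA synthesis. *Rdh10* (chr1:16175998-16203958 on mm39) was a gene of female PGCs among sorted germ cells. Control females at E13.5 had 18.1, 19.1 and 18.1 TPM, and control males at that stage 2.77, 3.30 and 3.59 TPM. The sexes did not overlap at E13.5, and the log2 difference was 2.20 (SE 0.14, adjusted p = 2.22e-06). At E16.5, control females had 7.77, 18.4 and 18.6 TPM and males 2.35, 2.62 and 3.01 TPM, a log2 difference of 2.03 (SE 0.32, adjusted p = 0.000775). The E12.5 controls, at 3.62 to 4.72 TPM, lay near the male level, and *Rdh10* was higher in E13.5 females than in these pools by 1.87 (SE 0.17, adjusted p = 1.17e-05). Female gonads held 36.3 to 47.8 TPM.

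*Aldh1a2* (chr9:71123071-71203525) had its highest PGC level in E16.5 males, with 76.5, 72.5 and 69.2 TPM in controls. Control E13.5 males had 10.7, 11.7 and 13.7 TPM, and E12.5 controls 3.92, 4.57 and 6.06 TPM. In controls it rose by 1.17 from E12.5 to E13.5 males (SE 0.17, adjusted p = 0.000176) and by a further 2.50 to E16.5 males (SE 0.10, adjusted p = 1.07e-07). Females followed later. Control females had 4.49, 2.35 and 3.45 TPM at E13.5 and 14.2, 23.8 and 26.3 TPM at E16.5, a rise of 2.32 (SE 0.29, adjusted p = 0.00012). Females were below males at both stages, by log2 differences of -1.58 at E13.5 (SE 0.21, adjusted p = 0.000144) and -1.76 at E16.5 (SE 0.21, adjusted p = 0.000171). Female gonads held far more, 218 to 264 TPM, which made *Aldh1a2* the most abundant of the 9 genes there.

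*Aldh1a1* (chr19:20470079-20620829), the other RA-forming dehydrogenase, was lower than *Aldh1a2* in the PGC group where both peaked. Control E16.5 males had 17.3, 14.6 and 10.9 TPM of *Aldh1a1*. From 1.41, 1.90 and 1.07 TPM at E12.5 *Aldh1a1* rose to 7.47, 8.69 and 11.5 TPM in control E13.5 males, by 2.05 (SE 0.20, adjusted p = 1.09e-05). Female values were scattered, from 0.816 to 6.75 TPM in E13.5 controls, and neither sex difference passed (adjusted p = 0.0125 at E13.5 and 0.0186 at E16.5). *Dhrs3* (chr4:144619397-144654779), the retinaldehyde reductase, was low in PGCs, at 0.747 to 11.8 TPM over all 30 libraries, and at 53.2 to 65.2 TPM in gonads. It rose from 2.11, 2.56 and 1.99 TPM in control E13.5 males to 6.06, 4.94 and 5.47 TPM at E16.5, by 1.01 (SE 0.14, adjusted p = 0.000169), a change just past the fold threshold. It was 0.72 with median-of-ratios scaling, 0.80 on FPKM and 0.95 to 0.99 without E16.5 control library 1 or without E13.5 control library 1 or 3, all short of that threshold.

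RA breakdown. *Cyp26b1* (chr6:84548396-84570890) did not reach 1 TPM in any PGC library, with a highest value of 0.979 TPM and 3 libraries listed at 0, so it could not be tested there. Control females at E13.5 (0.867, 0.893 and 0.636 TPM) and control males at E16.5 (0.878, 0.337 and 0.979 TPM) had the highest group means. Gonads held 7.09 to 22.9 TPM. *Cyp26a1*, of the second list, was as scarce in PGCs, with group means of at most 1.15 TPM.

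RA receptors. *Rarb* encodes a receptor that is itself a textbook target of RA, through a pair of receptor half-sites just upstream of one of its start sites. The RefSeq promoter windows of GRCm38.p6 (250 bases before to 50 after a start) held 11 windows of 7 of the 9 genes and none for *Crabp2* and *Rdh10*. Both strands were searched for the half-sites (either AGGTCA or AGTTCA or GGGTCA or GGTTCA), repeated in 1 direction with 5 bases between them (DR5). Of 32851 windows, 32 (0.0974%) held such a pair. Among the 9 genes only *Rarb* did, and among the 32 genes of the second list with a window only *Cyp26a1*. The same half-sites with 1 base (DR1, 0.222% of windows) or 2 bases between them (DR2, 0.268%) matched no window of the 9 genes, so the DR5 match overlaps neither, and *Bco1* was the single DR1 match in the second list. The *Rarb* and *Cyp26a1* windows are shown because they carry the only DR5 matches among the genes described, read 5′ to 3′ on the strand of the gene with the match in capitals.
*Rarb*, chr14:16575471-16575571, minus strand, match ending 36 bases before the start site: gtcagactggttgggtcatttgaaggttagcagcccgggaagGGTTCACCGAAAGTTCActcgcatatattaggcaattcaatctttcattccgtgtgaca
*Cyp26a1*, chr19:37697734-37697834, plus strand, match lying on the opposite strand and ending 15 bases before the start site: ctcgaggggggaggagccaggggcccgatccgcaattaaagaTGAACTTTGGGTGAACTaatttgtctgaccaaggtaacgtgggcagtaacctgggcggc

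A match is a description of the letters and says nothing on binding in these cells. Both genes with a match had low levels in PGCs, and *Rarb* varied strongly with stage and sex. Control males had 0, 0.0587 and 0.0470 TPM at E13.5 and 4.83, 4.22 and 4.78 TPM at E16.5, a log2 rise of 2.44 (SE 0.14, adjusted p = 7.09e-07). Females ran the other way, from 1.80, 1.23 and 1.55 TPM in E13.5 controls to a listing of 0 in all 6 E16.5 libraries. In controls the sexes differed at E13.5, with females higher by 1.28 (SE 0.19, adjusted p = 0.000339), and at E16.5, with males higher (adjusted p = 1.55e-05). The female decline (adjusted p = 0.00445) was lost without any 1 of the E13.5 control libraries (adjusted p from 0.0151 to 0.0275). In each of these comparisons *Rarb* averaged at least 1 TPM only in the higher group, so it was tested through that group alone. *Rarb* held 9.21 to 13.0 TPM in gonads.

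*Rarg* (chr15:102143373-102165952), another RA receptor, was at 5.39, 6.78 and 5.87 TPM in control E13.5 males and at 6.22, 6.90 and 5.14 TPM in control E16.5 males, levels that overlapped. Control E16.5 females had 1.89, 0.945 and 2.00 TPM, below the males by 1.46 (log2 difference -1.46, SE 0.25, adjusted p = 0.00101). Gonads held 24.2 to 29.0 TPM.

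RA-binding proteins. *Crabp1* (chr9:54672032-54680394) had the highest mean of the 9 genes in every PGC group and showed the widest range, from 23.9 to 381 TPM. Control females had 191, 234 and 282 TPM at E13.5 and 38.5, 26.2 and 23.9 TPM at E16.5. Control males had 76.8, 59.0 and 82.8 TPM at E13.5 and 332, 367 and 381 TPM at E16.5. The order of the sexes was thus turned between the stages, from females higher by 1.68 (SE 0.16, adjusted p = 2.13e-05) to females lower by 3.59 (log2 difference -3.59, SE 0.17, adjusted p = 1.34e-06). Within a sex, *Crabp1* fell by 2.97 in females (SE 0.20, adjusted p = 2.59e-06) and rose by 2.30 in males (SE 0.12, adjusted p = 4.53e-07). In the E12.5 controls it was at 64.0 to 75.5 TPM, and E13.5 females were higher than these by 1.76 (SE 0.14, adjusted p = 4.65e-06).

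*Crabp2* (chr3:87855973-87860683), which carries RA to the receptors, peaked in control E13.5 females at 63.9, 71.8 and 55.0 TPM. It was at 10.1, 8.97 and 7.86 TPM in E12.5 controls and at 22.8, 20.0 and 19.4 TPM in control E16.5 females. E13.5 females were above E12.5 by 2.69 (SE 0.15, adjusted p = 6.08e-07), a difference of sex as well as stage, and from E13.5 to E16.5 *Crabp2* fell in females by 1.57 (SE 0.15, adjusted p = 2.71e-05). Control E13.5 males, at 16.0, 22.8 and 18.1 TPM, were below females of that stage by a log2 difference of 1.70 (SE 0.15, adjusted p = 1.24e-05). At E16.5 the order was turned, with control males at 34.1, 30.3 and 36.6 TPM above all 3 females (log2 difference -0.67, SE 0.13, adjusted p = 0.00189), short of the fold threshold. Gonads held 80.8 to 104 TPM of *Crabp1* and 50.4 to 62.1 TPM of *Crabp2*.

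**Figure D1:**
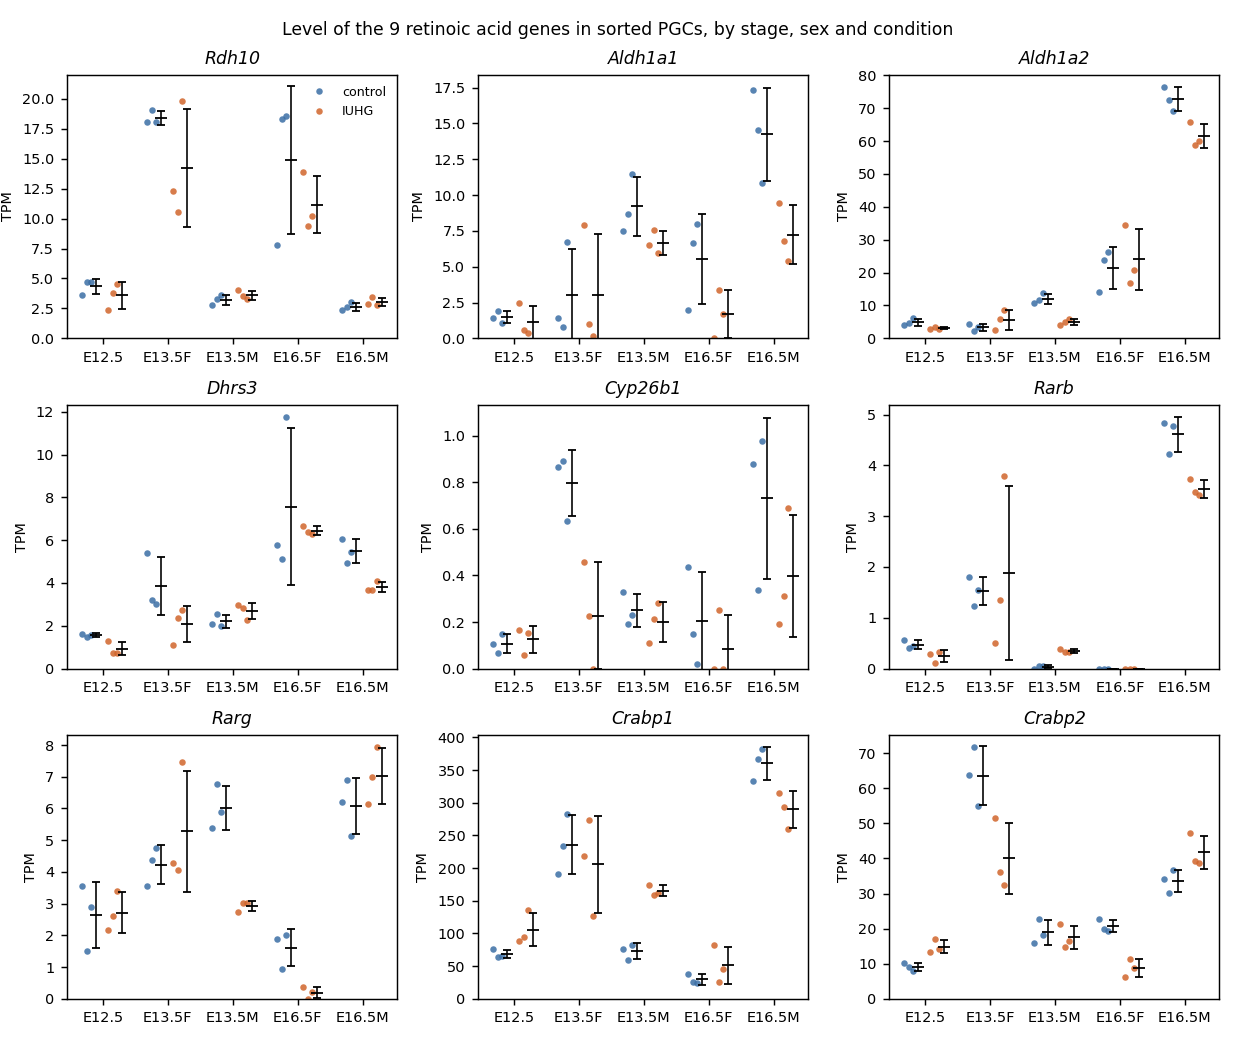
TPM of the 9 genes in sorted PGCs, 1 panel a gene on a linear axis that starts at 0, with control libraries in blue and IUHG libraries in orange at each stage and sex, and the mean and SD of each group of 3 in black. *Crabp1*, *Crabp2* and *Rarb* change order between females and males from E13.5 to E16.5, and *Aldh1a2* is highest in E16.5 males.

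These control comparisons changed large parts of the transcriptome, and the share of the 9 genes that moved has to be read against it. Between the sexes 5 of 8 tested genes differed at E13.5, where 29.8% of all genes tested did, and 5 of 8 at E16.5, where 50.9% did. Against E12.5, 3 of 8 differed in E13.5 females (25.4% of all genes) and 2 of 7 in E13.5 males (16.2%). From E13.5 to E16.5, 4 of 8 changed in females (28.2%) and 4 of 8 in males (51.0%). *Rarb* is counted between the sexes and from E13.5 to E16.5, each time tested through its higher group alone. Neighbours in the order of the 10 PGC group means mostly overlapped. Of the 9 neighbouring pairs, 4 were free of overlap for *Aldh1a2* and *Rarb*, 3 for *Dhrs3*, *Crabp1* and *Crabp2*, 2 for *Rarg*, 1 for *Rdh10* and 0 for *Aldh1a1* and *Cyp26b1*. From E13.5 to E16.5 in control males, the 10 interstitial and fetal Leydig markers summed to 28.6 to 35.2 and 58.3 to 120 TPM. The 8 supporting lineage and coelomic epithelium markers summed to 13.2 to 18.0 and 34.4 to 41.1 TPM. Blood sums were 2.02 to 76.2 and 255 to 579 TPM, and mesonephros sums 9.07 to 14.4 and 34.0 to 41.0 TPM. Pregranulosa sums were 19.4 to 26.4 and 40.2 to 47.3 TPM, and macrophage sums 3.41 to 5.14 and 34.3 to 37.4 TPM. Called higher were 6 of 7 tested blood, 3 of 4 mesonephros, 4 of 6 pregranulosa and 5 of 9 interstitial markers, with none lower. Endothelial sums fell (46.8 to 52.3 and 11.6 to 13.2 TPM), as did germ cell sums (9271 to 9970 and 4233 to 4704 TPM), and Sertoli sums overlapped. In control females at these stages the supporting lineage sums were 5.03 to 8.61 and 20.3 to 45.1 TPM. Pregranulosa sums there were 22.1 to 27.9 and 37.0 to 51.2 TPM, and interstitial sums 12.0 to 18.7 and 26.8 to 71.9 TPM. Sertoli, mesonephros, endothelial and germ cell sums of control females were lower at E16.5, and blood and macrophage sums overlapped. The part of these lists in these levels was not tested.

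Effect of IUHG on male PGCs at E13.5. Of the 7 genes tested, *Crabp1* rose and *Aldh1a2* fell, where 3.92% of all 14473 genes tested changed in either direction. *Crabp1* was at 76.8, 59.0 and 82.8 TPM in controls and at 175, 159 and 162 TPM under IUHG. All 3 IUHG libraries were above all 3 controls, with means of 72.9 ± 12.4 and 165 ± 8.26 TPM (SD, n = 3), a 2.27-fold difference (log2 change 1.18, SE 0.11, adjusted p = 5.3e-05). *Aldh1a2* went from 10.7, 11.7 and 13.7 TPM to 3.94, 5.03 and 5.85 TPM. These groups did not overlap either, and *Aldh1a2* fell by 1.14 (SE 0.14, adjusted p = 0.000338). On FPKM values it fell by 1.00, short of the fold threshold, with an adjusted p of 0.000274.

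*Rarg* was at 5.39, 6.78 and 5.87 TPM in controls and 2.74, 3.03 and 3.01 TPM under IUHG, again without overlap, with a log2 difference of -0.83 (SE 0.13, adjusted p = 0.000987) that did not reach the fold threshold. With a pseudocount of 0.1 in place of 1 the difference was -1.01 (adjusted p = 0.00101), past both thresholds. *Aldh1a1* overlapped between the groups, with a difference of -0.40 (SE 0.15, adjusted p = 0.0697). *Rdh10*, *Dhrs3* and *Crabp2* overlapped too and had adjusted p-values of 0.508, 0.342 and 0.617. *Rarb*, too low to be tested, was at 0 to 0.0587 TPM in controls and at 0.322 to 0.385 TPM under IUHG. Libraries of the 2 groups were free of overlap for 3 of the 7 genes, where 47.1% of all genes were.

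Markers of other cells moved in these same libraries. The 10 interstitial and fetal Leydig markers summed to 28.6 to 35.2 TPM in control E13.5 males and to 4.30 to 7.80 TPM under IUHG. Of them 7 were tested and 3 fell, the steroid enzymes *Cyp11a1*, *Cyp17a1* and *Hsd3b1*. None of the 10 was at 0 in all 3 libraries of a group. *Cyp17a1*, for example, was at 6.47 to 8.85 TPM in controls and at 0 to 0.724 TPM under IUHG. The 7 Sertoli markers summed to 106 to 117 TPM in controls and to 116 to 165 TPM under IUHG, with none called. Blood markers summed to 2.02 to 76.2 TPM in controls, with library 1 alone at 76.2 TPM, and to 0.916 to 1.36 TPM under IUHG. Macrophage markers summed to 3.41 to 5.14 and 2.92 to 2.98 TPM, and neither list had a gene called. The 5 mesonephros markers summed to 9.07 to 14.4 TPM in controls and 26.0 to 35.0 TPM under IUHG, with the 1 tested called higher. The 5 endothelial markers summed to 46.8 to 52.3 and 73.8 to 83.6 TPM, with only 1 high enough to be tested and not called. The 7 pregranulosa markers summed to 19.4 to 26.4 and 15.0 to 17.5 TPM, with 1 called higher and 1 lower. Sums of the 8 supporting lineage and coelomic epithelium markers overlapped, at 13.2 to 18.0 and 14.1 to 15.4 TPM. Of these 8 markers 5 were tested and 1 was called higher. Germ cell markers summed to 9271 to 9970 TPM in controls and 8071 to 8384 TPM under IUHG, with 1 of 9 lower, and Y-linked genes to 151 to 183 and 116 to 120 TPM. The part of these lists in the values of *Aldh1a2*, *Rarg* and *Crabp1* was not tested, and fewer cells of a type cannot be told apart from less RNA per cell in bulk samples.

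**Figure D2:**
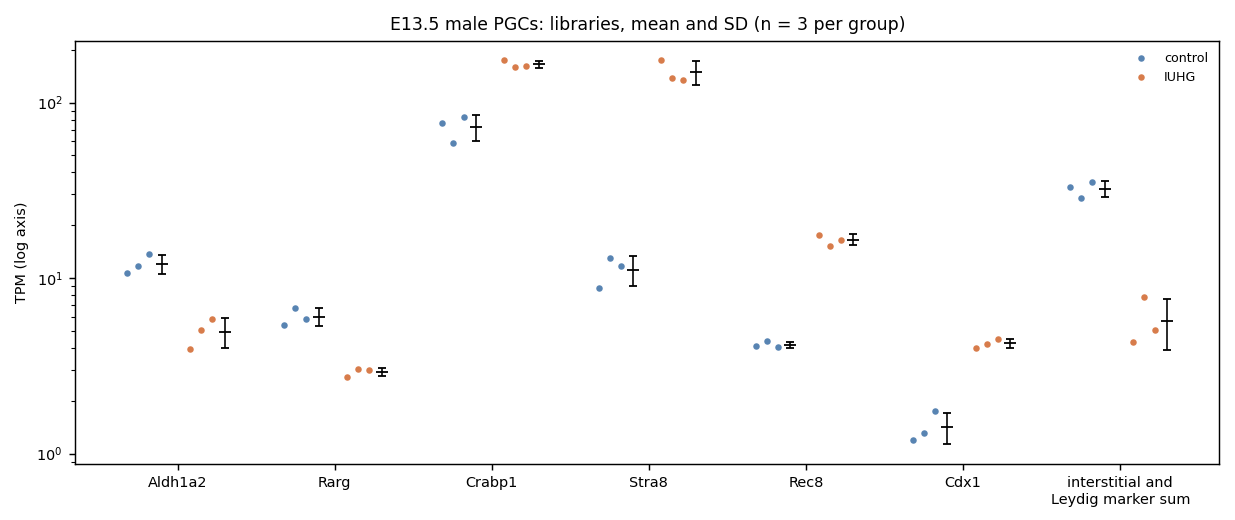
TPM on a log axis in E13.5 male PGCs, control libraries in blue and IUHG libraries in orange, with the mean and SD of each group of 3, for 3 of the 9 genes, 3 genes known to be induced by RA and the summed interstitial and fetal Leydig markers. No group of 3 overlaps its partner, with *Aldh1a2*, *Rarg* and the marker sum lower and *Crabp1*, *Stra8*, *Rec8* and *Cdx1* higher under IUHG. The genes were chosen by their change. They are the 3 free of overlap among 7 tested, and the 3 called among 6 tested genes listed as induced by RA. Over all genes tested, 47.1% were free of overlap.

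Effect of IUHG on PGCs at E16.5. None of the 7 genes tested in females passed both thresholds by limma (0.736% of all genes did), and 3 had an unadjusted p under 0.05, as did 22.8% of all genes. The nearest was *Crabp2*, at 22.8, 20.0 and 19.4 TPM in controls and 6.31, 11.4 and 8.66 TPM under IUHG. Every IUHG library was below every control, with a log2 difference of -1.18 (SE 0.25, adjusted p = 0.0283). With all PGC groups in a single fit, which shares 1 estimate of the spread, its adjusted p was 4.73e-05. *Rarg* was at 1.89, 0.945 and 2.00 TPM in controls and at 0.359, 0 and 0.212 TPM under IUHG (log2 difference -1.12, SE 0.41, adjusted p = 0.149, and 0.00114 in the single fit). Libraries did not overlap for these 2 of 7 genes, where 28.9% of all genes were free of overlap. *Rarg* was tested through its controls alone, since its mean under IUHG was 0.190 TPM. *Aldh1a1* differed by -1.37 (SE 0.61, adjusted p = 0.218) with overlapping libraries. The summed interstitial markers were higher here under IUHG, at 91.4 to 125 TPM against 26.8 to 71.9 TPM, with none called and *Cyp11a1* listed at 0 in all 6 libraries. The 8 markers of the supporting lineage and coelomic epithelium were at 20.3 to 45.1 TPM in controls and 46.3 to 53.5 TPM under IUHG, with none called. Germ cell markers were at 3029 to 3345 and 2630 to 2994 TPM, with 2 of 9 called lower, and the part of these lists in the values of *Crabp2* and *Rarg* was not tested.

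In E16.5 males, none of 8 tested genes passed by limma (0.201% of all genes did), although 5 had an unadjusted p under 0.05, as did 23.9% of all genes. *Aldh1a1* was at 17.3, 14.6 and 10.9 TPM in controls and 9.46, 6.82 and 5.41 TPM under IUHG. The groups did not overlap, and the difference was -0.90 (SE 0.21, adjusted p = 0.0442). *Crabp1* was at 332, 367 and 381 TPM in controls and 315, 294 and 260 TPM under IUHG, a smaller difference of -0.32 (SE 0.08, adjusted p = 0.0573). *Aldh1a2* (-0.24, SE 0.08, adjusted p = 0.106), *Dhrs3* (-0.43, SE 0.15, adjusted p = 0.124) and *Rarb* (adjusted p = 0.258) were lower without overlap too. *Crabp2* was at 34.1, 30.3 and 36.6 TPM in controls and above them under IUHG at 47.2, 39.2 and 38.8 TPM (0.30, SE 0.11, adjusted p = 0.132). In all, 6 of 8 genes were free of overlap, against 29.8% of all genes. Sertoli markers summed to 109 to 137 TPM in controls and 40.9 to 70.8 TPM under IUHG, with 1 of 6 tested called lower, and Y-linked genes to 78.1 to 98.8 and 116 to 123 TPM, with none called. Blood markers overlapped, at 255 to 579 and 59.8 to 288 TPM, with 0 of 7 tested called. Mesonephros sums were 34.0 to 41.0 and 30.3 to 31.8 TPM, and pregranulosa sums 40.2 to 47.3 and 33.1 to 39.9 TPM, with none called. The part of these lists in the values above was not tested.

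Effect of IUHG on earlier PGCs. At E12.5 none of 7 genes passed by limma (0.247% of all genes did), and 3 had an unadjusted p under 0.05, as did 15.7% of all genes. Both binding proteins were higher under IUHG without overlap. *Crabp1* went from 75.5, 64.0 and 65.7 TPM to 88.2, 94.2 and 136 TPM (0.60, SE 0.16, adjusted p = 0.106), and *Crabp2* from 10.1, 8.97 and 7.86 TPM to 13.3, 16.9 and 14.3 TPM (0.66, SE 0.16, adjusted p = 0.0771). *Aldh1a2* was lower, from 3.92, 4.57 and 6.06 TPM to 2.97, 3.34 and 2.96 TPM (-0.50, SE 0.20, adjusted p = 0.267), as was *Dhrs3* (adjusted p = 0.387). These made 4 of 7 genes free of overlap, against 22.4% of all genes. *Dhrs3* was tested through its controls alone, at means of 1.56 TPM in controls and 0.920 TPM under IUHG. *Rarb*, too low to be tested, was at 0.407 to 0.563 TPM in controls and at 0.109 to 0.332 TPM under IUHG. The interstitial markers again stood lower, at 1.90 to 2.48 TPM under IUHG against 8.61 to 9.87 TPM, with 3 of 10 tested and none called. Sertoli sums were lower too, at 43.1 to 50.7 against 53.9 to 58.6 TPM. So were pregranulosa sums, at 2.15 to 4.92 against 6.66 to 7.94 TPM, and germ cell sums, at 7143 to 7933 against 7988 to 8654 TPM. The endothelial sum was higher, at 148 to 165 against 123 to 132 TPM, with 1 of 5 tested. No gene of these lists was called. The Y-linked genes summed to 130 to 154 TPM under IUHG and 194 to 212 TPM in controls of this group of undetermined sex. The part of the sex make-up and of these lists in the values of the 9 genes was not tested.

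In E13.5 females none of 8 genes passed by limma (0.514% of all genes did), and 1 had an unadjusted p under 0.05, as did 23.4% of all genes. *Crabp2* was at 63.9, 71.8 and 55.0 TPM in controls and 51.6, 36.0 and 32.5 TPM under IUHG, without overlap (-0.67, SE 0.23, adjusted p = 0.135). *Dhrs3* was the other tested gene free of overlap (-0.67, SE 0.36, adjusted p = 0.284), 2 of 8 where 33.0% of all genes were. *Cyp26b1*, too low to be tested, was at 0.636 to 0.893 TPM in controls and at 0 to 0.457 TPM under IUHG. The IUHG libraries were widely scattered. *Rdh10* was at 12.3, 10.5 and 19.8 TPM there against 18.1 to 19.1 TPM in controls (-0.40, SE 0.27, adjusted p = 0.387), and *Rarb* at 0.498, 1.35 and 3.79 TPM. Endothelial markers summed to 52.5 to 70.7 TPM in controls and to 89.3, 127 and 210 TPM under IUHG. Only 1 of these 5 was high enough to be tested, and it was not called. Germ cell markers summed to 5303 to 5580 and 6028 to 7125 TPM, with 1 of 9 called lower. IUHG library 3 held the highest of these sums. Without it the number of genes called over all genes was 428 in place of 85, and the part of these lists in the values of the 9 genes was not tested.

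**Figure D3:**
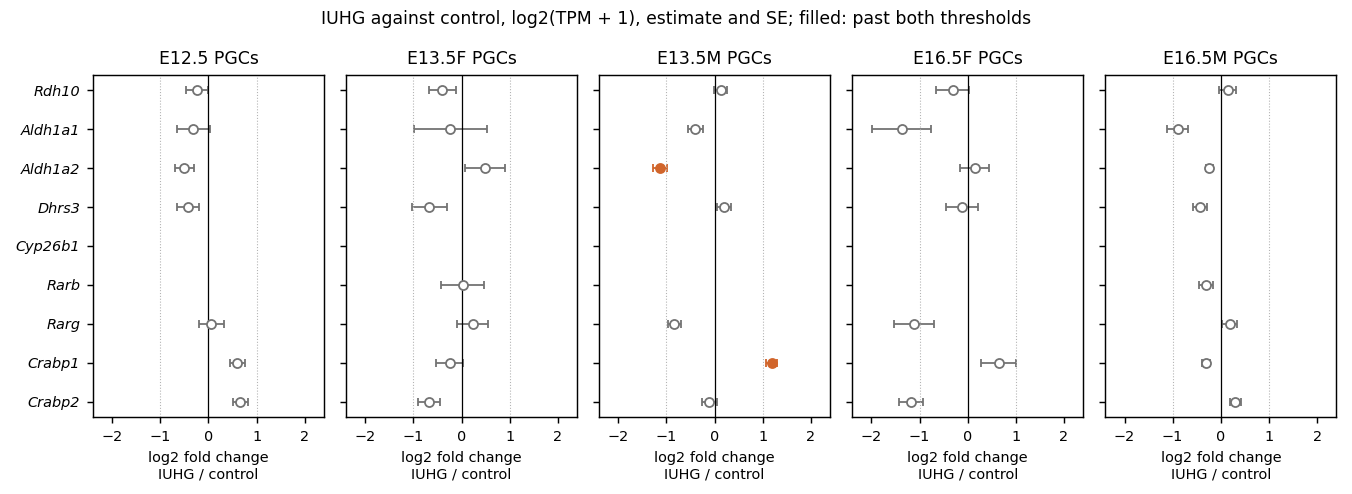
Log2 change of the tested genes under IUHG in each PGC group on log2(TPM + 1), with the SE as bars, a solid line at 0 and dotted lines at the fold threshold of 1 either way. Filled points passed both thresholds, which only *Aldh1a2* and *Crabp1* in E13.5 males did, and genes with no point were too low to be tested.

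IUHG effects by sex and stage. The difference between the IUHG effects in E13.5 females and males was tested directly. None of 8 genes passed by limma at an adjusted p under 0.01 (3.2% of all genes did), and 4 had an unadjusted p under 0.05, as did 27.9% of all genes. The estimates were -1.43 for *Crabp1* (SE 0.34, adjusted p = 0.0194), 1.63 for *Aldh1a2* (SE 0.46, adjusted p = 0.0431) and 1.06 for *Rarg* (SE 0.32, adjusted p = 0.0509). *Crabp1* passed without the second or the third female IUHG library (adjusted p = 0.00564 and 0.00425) and *Aldh1a2* without the first (0.00411). *Rarg* passed in no setting (lowest adjusted p = 0.0242). Between E16.5 and E13.5 males the IUHG effects differed for 3 of 8 genes, where 8.29% of all genes did. The change in *Crabp1* was lower at E16.5 by 1.50 (interaction -1.50, SE 0.15, adjusted p = 4.8e-05), and those in *Rarg* (1.02, SE 0.19, adjusted p = 0.00266) and *Aldh1a2* (0.90, SE 0.17, adjusted p = 0.00289) were higher. None of the 3 passed with all PGC groups in a single fit, where adjusted p-values were 0.0274, 0.0835 and 0.234. Between the stages in females none of 8 passed (1.93% of all genes did), and 1, *Rarg*, had an unadjusted p under 0.05, as did 22.5% of all genes. In simulated data this female test recovered 25% of the changes put in, against 89.5% for the male one and 62% for sex by IUHG.

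Effect of IUHG on female gonads. None of the 9 genes passed by limma (0.612% of all genes did), and 4 had an unadjusted p under 0.05, as did 19.9% of all genes. *Aldh1a1* was at 159, 55.8 and 46.9 TPM in controls and 40.9, 44.3 and 32.4 TPM under IUHG. The difference of -0.93 (SE 0.39, adjusted p = 0.234) took much of its size from the control library with Y-linked and Sertoli RNA. It was -0.39 without that library (adjusted p = 0.188), with both remaining controls still above all IUHG samples. *Cyp26b1* was at 22.9, 9.04 and 7.09 TPM in controls, the first from the same library, and 11.8, 13.3 and 13.3 TPM under IUHG. Its difference was 0.15 with all libraries (SE 0.34, adjusted p = 0.853) and 0.62 without that library (adjusted p = 0.0637), with all IUHG samples then above both controls. *Cyp26b1* and *Aldh1a1* in this library stood with its other male markers, and whether male tissue carried them was not tested.

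The remaining genes were tighter. *Dhrs3* was at 58.9, 53.2 and 58.3 TPM in controls and 64.8, 65.2 and 63.6 TPM under IUHG, without overlap, a difference of 0.18 (SE 0.06, adjusted p = 0.135). *Rdh10* (-0.19, SE 0.08, adjusted p = 0.229) and *Crabp1* (0.16, SE 0.07, adjusted p = 0.23) were free of overlap as well, which with *Aldh1a1* made 4 of 9 genes where 25.8% of all genes were. *Aldh1a2*, *Rarb*, *Rarg* and *Crabp2* overlapped. The interstitial markers, 10 of 10 tested and none called, summed to 2447 to 2856 TPM in controls and 1832 to 1964 TPM under IUHG. Blood markers summed to 13954 to 17236 and 10974 to 12583 TPM, with 3 of 8 called lower. The supporting lineage markers summed to 642 to 679 and 769 to 780 TPM and the germ cell markers to 558 to 637 and 740 to 914 TPM, with none called in either list. The part of these lists in the values of the 9 genes was not tested.

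**Figure D4:**
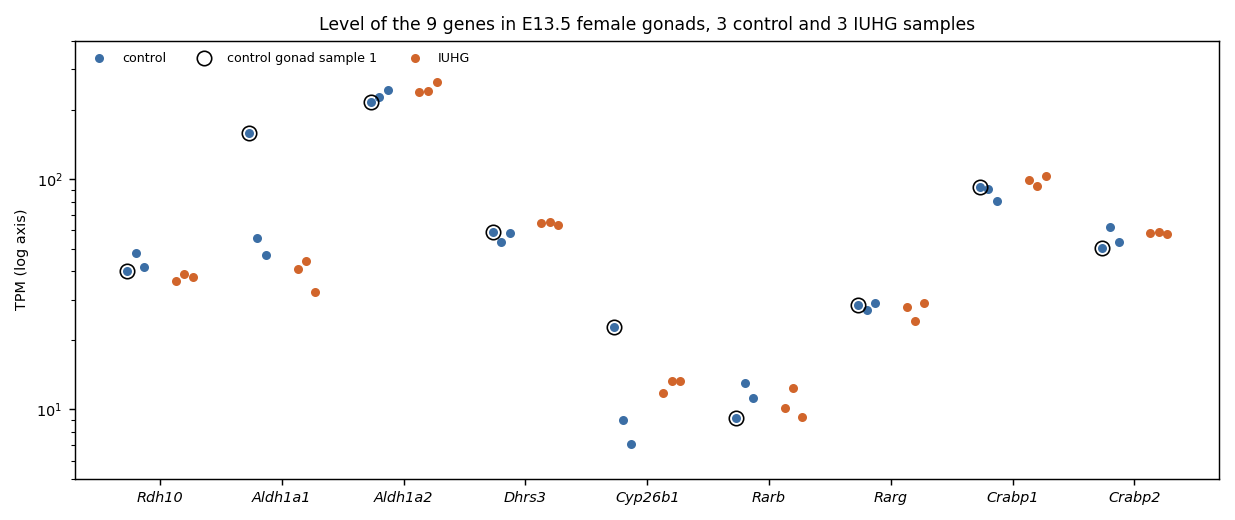
TPM on a log axis of the 9 genes in E13.5 female gonads, with 3 control samples in blue, 3 IUHG samples in orange and control sample 1 ringed. The ringed sample stands apart for *Aldh1a1* (159 TPM) and *Cyp26b1* (22.9 TPM) and lies with the others for the remaining genes.

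Other genes of the pathway. Of the second list, 3 of 24 tested genes rose in E13.5 males (3.92% of all genes changed), 1 of 30 fell in E13.5 females (0.514%) and 1 of 24 rose at E12.5 (0.247%). None passed by limma in gonads, where 9 of 36 had an unadjusted p under 0.05 (19.9% of all genes did), in E16.5 females (7 of 30, 22.8%) or in E16.5 males (13 of 38, 23.9%). Of the 15 genes listed as induced by RA, 6 were tested in E13.5 males, and the 3 that rose were among these 6. *Stra8*, which starts the meiotic programme, was at 8.73, 13.0 and 11.7 TPM in controls and 175, 138 and 134 TPM under IUHG, a 13.3-fold difference (log2 change 3.63, SE 0.14, adjusted p = 2.74e-07). *Rec8*, a meiotic cohesin subunit, went from 4.09, 4.37 and 4.05 TPM to 17.7, 15.3 and 16.6 TPM (1.76, SE 0.10, adjusted p = 2.64e-06). *Cdx1*, a homeobox gene, went from 1.19, 1.32 and 1.74 TPM to 4.01, 4.23 and 4.48 TPM (1.12, SE 0.14, adjusted p = 0.000393), and by 0.88 on FPKM values, short of the fold threshold.

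*Stra8* moved the other way in E13.5 females, from 1936, 1719 and 1841 TPM to 466, 491 and 326 TPM (-2.12, SE 0.19, adjusted p = 0.0011). The call was lost without any 1 of the control libraries, at adjusted p-values of 0.016 to 0.0174. *Rec8* was at 86.5 to 88.9 TPM in these controls and 53.1 to 71.2 TPM under IUHG (-0.46, SE 0.19, adjusted p = 0.188). The IUHG effects in females and males differed for *Stra8* (-5.75, SE 0.25, adjusted p = 4.88e-08) and for *Rec8* (-2.22, SE 0.19, adjusted p = 2.69e-05). At E12.5 the gene that rose was *Fabp5*, a fatty acid carrier that also binds RA, from 6.92, 5.36 and 5.30 TPM to 24.8, 27.9 and 18.7 TPM (1.85, SE 0.18, adjusted p = 0.0018), a call lost without control library 2 or 3 or without IUHG library 1 or 2 (adjusted p = 0.0138 to 0.0191).

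In control PGCs the second list moved with stage and sex, again against the background of all genes given above. From E13.5 to E16.5 in males 20 of 37 tested genes rose and 5 fell. Among those that rose were *Bco1*, which cleaves carotene to retinaldehyde, from a mean of 0.365 to 38.2 TPM, and the carriers *Fabp5* (9.32 to 109 TPM) and *Rbp4* (10.2 to 92.7 TPM). In females over the same time 6 of 31 rose and 6 fell. *Stra8* fell from a mean of 1832 to 145 TPM, *Rec8* from 87.9 to 4.33 TPM and the receptor gene *Rara* from 12.3 to 1.29 TPM, while *Rbp4* rose from 21.8 to 60.9 TPM. Between the sexes 6 of 29 genes were higher and 3 lower in females at E13.5, led by *Stra8* and *Rec8*, and 8 of 37 were higher and 14 lower at E16.5, led by *Fabp5* and *Bco1*. Against E12.5, 9 of 29 were higher and 3 lower in E13.5 females, and 3 of 25 were higher and 1 lower in E13.5 males. The most abundant genes of their roles over all PGC groups were the alcohol dehydrogenase *Adh5*, the receptor partner *Rxrb*, *Rbp4*, *Stra8* and, for RA breakdown, *Cyp26a1*.

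Genes with the most similar pattern. Pearson's r of log2(TPM + 1) over the 30 PGC libraries, which share stage and sex groups, is given as a description, for the 8 genes that averaged at least 1 TPM in a PGC group. *Aldh1a2* was closest to *Rgl1* (r = 0.961), *Dact3* (0.957) and *Fxyd1* (0.957), and *Rarb* to *Cacng4* (0.951), *Tbata* (0.942) and *Rims4* (0.939). *Rdh10* was closest to *Ids* (0.937), *Pde8a* (0.931) and *Zxdb* (0.931). *Rarg* was closest to *Agpat4* (0.927), *Cpne5* (0.912) and *Vegfd* (0.908), and *Dhrs3* to *Plekhg4* (0.919), *Nfix* (0.911) and *Ccdc136* (0.903). *Crabp1* was closest to *Litaf* (0.917), *Plaat3* (0.911) and *Smim36* (0.909), and *Crabp2* to *Lmo4* (0.880), *Syt12* (0.874) and *Hs3st6* (0.853). The weakest likeness was that of *Aldh1a1*, with *Trmt112-ps2* (0.812), *Rps18* (0.804) and *Akr1cl* (0.803).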

How the data were processed

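RNA-seq libraries came from 6 female gonad and 30 sorted PGC samples in 12 groups of 3. The TPM values were made by the authors in gene tables of StringTie layout and deposited beside FPKM and coverage, which is the mean depth over a gene's bases. Reads were aligned with HISAT2 (gonads) or STAR (PGCs) according to the methods, and the notes of the submitters name STAR, featureCounts, DESeq2 and mm39 for all samples. Gene positions in the gonad tables lie on GRCm38, where 47.9% of genes shared a start or end with RefSeq GRCm38.p6, against 1.14% of genes in the PGC tables. Aligned bases were taken from the ratio of coverage to FPKM, and the counting error of a gene is unknown in these units.

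Values were summed per gene ID. Log2(TPM + 1) was tested in limma 3.58.1 under R 4.3.3 (two-sided, empirical Bayes with trend), after checks on simulated data, with the 2 groups compared in each fit and Benjamini-Hochberg adjustment over all genes averaging at least 1 TPM in a group. In the simulated data, log2 changes of 2 put in for IUHG were recovered in 68% of cases for E13.5 females and 64% for E16.5 females. The shares for males were 99.5% at E13.5 and 93.5% at E16.5, so such changes were missed more often in females. Read counts were not used here, so no count model was run. The 9 genes, the second list and the markers were chosen with earlier results of these data known. All 9 genes are named, with pathway genes that were called (at most 6 per comparison, lowest p first), the most abundant gene of each role, markers beside a result, and the 3 genes of highest correlation among those averaging at least 5 TPM in a PGC group. *Rec8* in E13.5 females was named after its values were seen. Promoter sequences are RefSeq, GRCm38.p6. The tests were repeated on FPKM, with 0.1 as the pseudocount, without the filter on low genes, after median-of-ratios scaling, with a single fit of all PGC groups, with a replicate block and without each library in turn.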

Additional observations from a re-analysis of the deposited data

Results flagged for a closer look

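In male PGCs the effect of IUHG differed between E16.5 and E13.5, by a test of the difference itself, for *Crabp1* (-1.50, adjusted p = 4.8e-05), *Rarg* (1.02, adjusted p = 0.00266) and *Aldh1a2* (0.90, adjusted p = 0.00289). The differences are on the log2(TPM + 1) scale, with the E13.5 effect taken from the E16.5 effect, and the adjusted p-values were 0.0274, 0.0835 and 0.234 with all PGC groups in a single fit. At E16.5, all 3 IUHG libraries were below all 3 controls for *Crabp2* in females and above them in males, a gap of -1.48 between the log2 changes that was not tested. Neither change passed by limma (adjusted p = 0.0283 in females and 0.132 in males). Libraries were free of overlap for 28.9% of all genes in females and 29.8% in males.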

How the results depend on the processing

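The direction was kept by all the log2 changes of single genes given with a call or an estimate, except that of *Cyp26b1* in gonads, which was -0.01 and -0.16 without control library 2 or 3. Among the 9 genes, the number called in E13.5 males under IUHG was 1 on FPKM, where 321 of 12233 genes were called. In a single fit of all PGC groups it was 2 in E16.5 females, where 1659 of 18753 genes were called. That fit gave 1 for sex by IUHG (1208 of 17389 genes). It gave 1 for stage by IUHG in females (2607 of 20584 genes) and 0 in males (414 of 21712). From E12.5 to E13.5 males the number was 4 with a pseudocount of 0.1 (2931 of 14531 genes) or median-of-ratios scaling (2326 of 14531). Leaving out 1 library gave 2 to 4 for the last comparison and 0 to 1 for sex by IUHG. Over all genes it gave 2256 to 2482 and 228 to 1642. For the second list, without the filter the number called under IUHG was 0 at E12.5 (2 of 39722 genes) and 0 in E13.5 females (1 of 37210). It was 6 from E13.5 to E16.5 females (3391 of 38165 genes). In a single fit it was 6 in E13.5 females, where 1358 of 16539 genes were called. Beside the counts of all genes given above, that fit gave 3 in E16.5 females and 4 for sex by IUHG. For stage by IUHG it gave 7 in females and 1 in males. FPKM gave 1 in E16.5 females (157 of 14349 genes) and a pseudocount of 0.1 gave 8 from E12.5 to E13.5 males. Leaving out 1 library gave 0 to 1 at E12.5, 0 to 2 in E13.5 females, 0 to 1 in E16.5 females, 2 to 6 from E12.5 to E13.5 males, 2 to 4 for sex by IUHG, and 1 to 2 and 4 to 6 for stage by IUHG in females and males. Over all genes, stage by IUHG then had 196 to 771 called in females and 1220 to 1741 in males. The cause was not tested, beyond the fewer samples or the shared spread that each setting brings.

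Same-numbered replicates showed little common deviation (correlations from -0.08 to 0.13 over genes, and in no comparison above 0.1 for every pair). The samples were therefore not paired by number, although such correlations cannot decide whether a pairing exists. The replicate block gave 2 second-list genes in E13.5 females, where it called 216 of 16539 genes. It ended the call on *Rarb* between E13.5 and E16.5 females (adjusted p = 0.015) and changed no other call on the genes named. Over all genes the number called moved by more than 1.5 times in several IUHG comparisons, from 85 in E13.5 females to 1358 in a single fit and 1 without the filter, and from 138 in E16.5 females to 1659 and 10. Leaving out 1 library gave 1 (without control 2) to 428 (without IUHG 3) in E13.5 females, 11 (without control 2) to 118 in E16.5 females, 6 (without control 3) to 34 at E12.5, where all libraries gave 34, 17 (without control 2) to 29 in E16.5 males, where all gave 42, and 38 (without IUHG 2) to 110 in gonads, where all gave 111. The shares of all genes called rest on these counts. Median-of-ratios scaling moved the median log2 change of all genes by over 0.1 from 0.62 to 0.33 between E13.5 and E16.5 males, from 0.14 to 0.00 for IUHG in E13.5 females, from 0.28 to 0.00 between the sexes at E13.5, from -0.11 to -0.33 between them at E16.5, from 0.27 to 0.03 between E12.5 and E13.5 females, from 0.31 to 0.09 between E13.5 and E16.5 females and from 0.16 to -0.01 for sex by IUHG, and none of the 59 single-gene changes recomputed with it turned direction. Depth sets no interval here, since TPM keeps no counts.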
